A study of Mus musculus with 6 samples.

Results

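The 7 genes followed here mark the projection neurons of the striatum and were read in ribosome-bound RNA from the frontal cortex. They are Ppp1r1b, Penk, Adora2a, Rgs9, Pde10a, Pdyn and Adcy5. They were taken by symbol, and all 7 are among the 23306 rows of the deposited count table. The libraries come from male C57BL6 mice in which a Pvalb promoter-driven Cre recombinase switches on Rpl22, a ribosomal protein, with a haemagglutinin tag from 1 allele (RiboTag). An antibody to the tag then recovers ribosomes mainly of parvalbumin neurons, the fast-spiking inhibitory cells of the cortex. Wild type mice were compared with mice carrying a conditional knockout of Fxr1, which encodes a relative of the fragile X protein that binds RNA, made with the same Cre. Both genotypes thus carry the Cre and the tag. Their age is not given, and no drug treatment is named. The series has 3 samples per genotype, of which replicates 2 and 3 of wild type and replicates 1 and 3 of knockout were analysed.

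Projection neurons of the striatum are inhibitory cells that receive dopamine and cortical glutamate and send axons to the basal ganglia. Those of the direct pathway make the dopamine receptor Drd1 and the peptide precursors Tac1 and Pdyn, and those of the indirect pathway make the dopamine receptor Drd2, the adenosine receptor Adora2a and the peptide precursor Penk. Both kinds share a cyclic AMP pathway in which Adcy5 makes cyclic AMP, Pde10a breaks it down, Rgs9 shortens G protein signals and Ppp1r1b, the protein DARPP-32, inhibits protein phosphatase 1 once protein kinase A has phosphorylated it. None of these transcripts is made by striatal cells alone: cortical neurons also express several of them, Penk and Pdyn are made by some cortical interneurons, and Ppp1r1b by deep-layer cortical neurons.

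Library totals ranged from 9696126 to 10301280 counts. Fxr1 measured 98.4 and 100.6 CPM (counts per library total, scaled alike in all libraries) in wild type, against 17.8 and 18.7 CPM in knockout, lower in the libraries labelled knockout. Pvalb lay between 241 and 264 CPM and Gad1 between 4048 and 4354 CPM. Gad1 is made by inhibitory neurons in general, striatal projection neurons among them, so its level does not mark parvalbumin neurons alone. The share of Rn45s, a precursor of ribosomal RNA, was 0.711% in knockout replicate 1 and 0.283% to 0.315% elsewhere. The labels do not say whether libraries came from separate animals, so p-values reflect only how these libraries vary, which may be technical. No input fraction was analysed here. In pulled-down RNA, fewer cells of a type and less RNA per cell cannot be told apart.

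Of the 7 genes, 6 passed the filter on low counts and were tested, and Pdyn did not. None of the 6 passed the threshold (adjusted p under 0.05) by edgeR's quasi-likelihood test, nor by DESeq2 or limma voom, against 0.0321% of all 12449 tested genes by edgeR. An unadjusted p under 0.05 was reached by 3 of them (Ppp1r1b, Penk and Adora2a) with edgeR, all 3 higher in knockout, where the background was 3.23% in either direction and 1.61% for higher, by the same number with limma voom and by 0 with DESeq2. Of the 6, 4 had a fitted log2 fold change above 0 and 2 below, where 49.6% of all tested genes lay above 0. In those 4 both knockout libraries lay above both wild type libraries, as in 14.8% of all tested genes. The genes were chosen with earlier results of these data known, so these shares describe the set and support nothing.

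**Figure D1:**
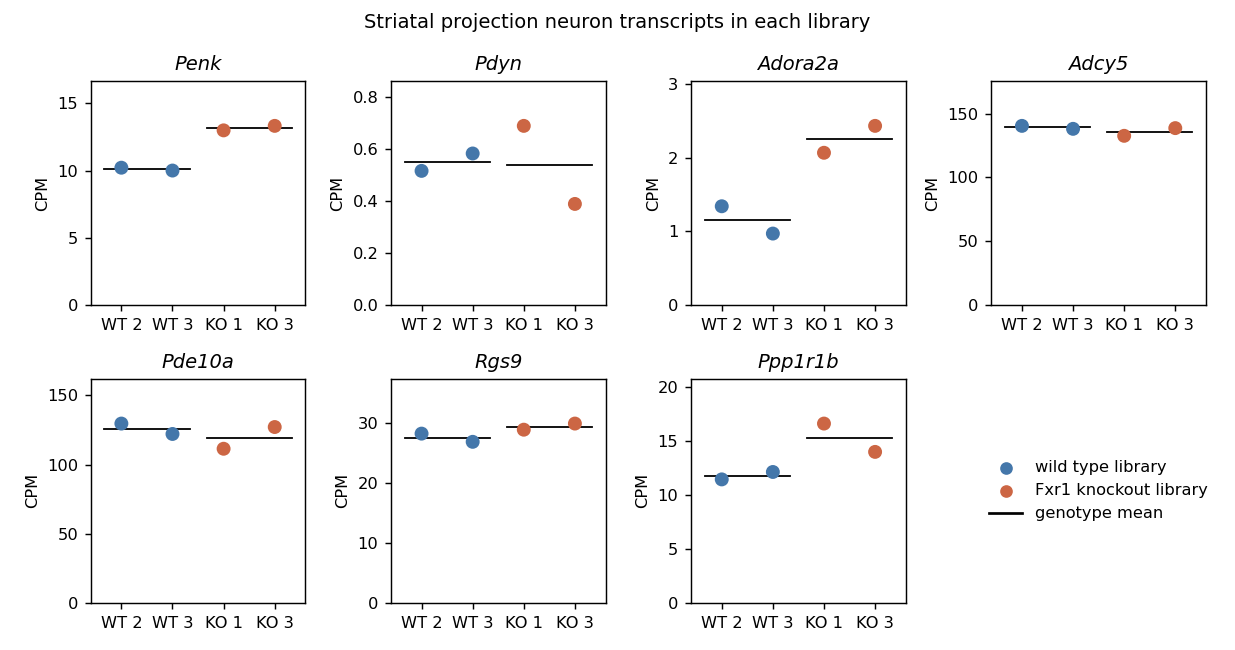
Each panel plots the CPM of a gene (vertical axis, from 0, with its own scale) in the 4 libraries, blue for wild type (WT 2 and WT 3) and orange for knockout (KO 1 and KO 3); bars are genotype means of 2 libraries. Penk, Adora2a, Ppp1r1b and Rgs9 are higher in both knockout libraries, while Pdyn, Adcy5 and Pde10a overlap, and no gene passed the adjusted test.

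The levels of the 7 genes spanned a wide range. Divided by the merged exon length of the GENCODE M21 annotation, Adcy5 stood highest at 19.1 ± 0.468 CPM per kb (SD, n = 4 libraries). It was followed by Pde10a at 9.54 ± 0.628 and Penk at 7.12 ± 1.08 CPM per kb. Ppp1r1b, at 4.63 ± 0.790 CPM per kb, and Rgs9, at 4.46 ± 0.200, were the neighbours in this order whose ranges over the 4 libraries overlapped. Adora2a measured 0.556 ± 0.217 and Pdyn 0.188 ± 0.0435 CPM per kb, and the ranges of all other neighbours in the order did not overlap. On the same scale the parvalbumin gene itself, Pvalb, stood at 244 ± 10.5 CPM per kb and the vesicular transporter of cortical excitatory neurons, Slc17a7, at 14.7 ± 1.55. Adcy5 was thus above, and the other 6 genes below, this excitatory marker in level per length. The annotated exons may be longer than the transcripts made in these cells, so this order is approximate.

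**Figure D2:**
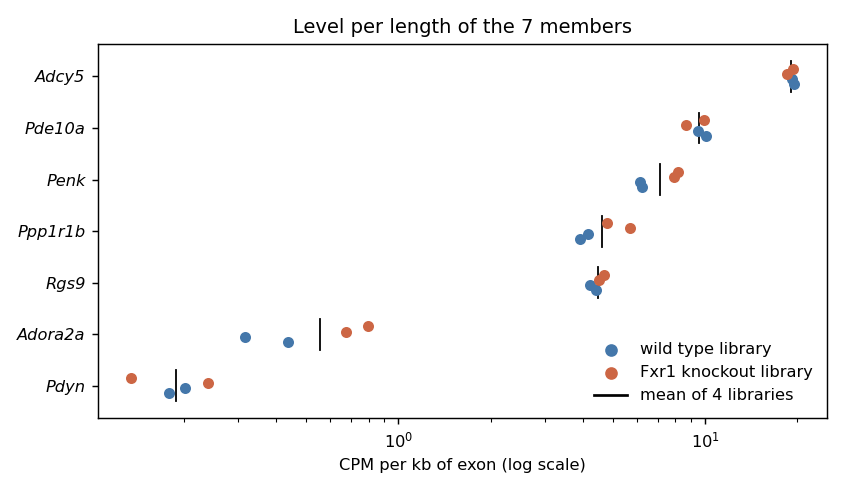
The horizontal axis gives CPM per kb of merged exon on a log scale, with a point per library (blue wild type, orange knockout) and a bar at the mean of 4 libraries. The genes run from Adcy5 at 19.1 to Pdyn at 0.188 CPM per kb, and Ppp1r1b and Rgs9 overlap.

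Sequences before the start sites are shown here for the genes at the top and the bottom of this order. This pair was picked after the levels were seen. RefSeq promoter windows (GRCm38.p6) were matched for 4 of the 7 genes, namely Adcy5, Pde10a, Pdyn and Rgs9, and the 250 bases before the start were read on the gene's strand. Capitals mark the GC box, searched as GGGCGG or, on the other strand, CCGCCC. The windows are chr16:35154614-35154863 on the plus strand for Adcy5 and chr2:129699939-129700188 on the minus strand for the more upstream of the 2 Pdyn starts.
Adcy5: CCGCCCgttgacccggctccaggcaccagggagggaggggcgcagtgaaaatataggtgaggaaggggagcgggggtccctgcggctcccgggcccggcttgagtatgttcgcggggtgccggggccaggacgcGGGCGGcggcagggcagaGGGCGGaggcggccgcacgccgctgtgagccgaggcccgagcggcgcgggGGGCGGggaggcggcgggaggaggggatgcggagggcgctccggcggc
Pdyn: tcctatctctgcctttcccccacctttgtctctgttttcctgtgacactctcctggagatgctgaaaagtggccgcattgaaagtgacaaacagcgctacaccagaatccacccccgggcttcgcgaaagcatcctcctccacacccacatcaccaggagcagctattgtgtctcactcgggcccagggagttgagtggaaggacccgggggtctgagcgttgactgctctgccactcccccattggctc
The Adcy5 window is 78.0% G or C, holds 32 CpG pairs and 4 GC boxes, and has more CpG pairs than 95.4% of all 32851 windows of this length. The Pdyn window shown is 57.2% G or C with 8 CpG pairs and no GC box. The more downstream Pdyn window is 44.0% G or C with 4 CpG pairs and no GC box. The Pde10a windows lie on both sides of the Pdyn window shown. The more upstream is 72.8% G or C with 21 CpG pairs, and the more downstream 56.0% with 4 CpG pairs and no GC box. Whether these sequences go with the levels was not tested. A GC box was found in 32.7% of all windows, and among these genes also once in the Rgs9 window and once in the more upstream Pde10a window. The cyclic AMP response element, TGACGTCA, and its core TGACG (or CGTCA) were found in none of the 6 windows of these 4 genes, against 1.55% and 17.8% of all windows. No match says only that these letters are not in the window.

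The opioid peptide precursors came first among the roles. Penk (chromosome 4, 4133531 to 4138819, minus strand) encodes proenkephalin, from which the enkephalins are cut. It had 99 and 103 counts in wild type, against 132 and 137 in knockout, which is 10.2 and 9.999 CPM against 13.0 and 13.3 CPM. Both knockout libraries were higher, and the libraries of each genotype lay close together. The difference was 1.302-fold with a 95% interval from 1.03 to 1.65 (log2 fold change 0.38, SE 0.17), with an unadjusted p of 0.0310 and an adjusted p of 0.998 by edgeR. Penk therefore did not pass over all genes.

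Pdyn (chromosome 2, 129686565 to 129699844, minus strand) encodes prodynorphin, the dynorphin precursor of the direct pathway. The libraries held 5 and 6 counts in wild type, against 7 and 4 in knockout, or 0.516 and 0.582 CPM against 0.688 and 0.389. The highest and the lowest library were both knockout, so the genotypes overlapped. With no filter on low counts its log2 fold change was −0.03 with an SE of 0.78, so at this depth a difference of severalfold would not have been detectable.

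Receptors and other precursors of opioid peptides were read from a list of 6 genes, of which 5 were tested and 0 passed by edgeR, DESeq2 or limma voom. With an unadjusted p under 0.05 there was 1 by each tool, and 2 lay above and 3 below 0 (median log2 fold change −0.03). The gene with that p was Oprd1, the delta receptor at which enkephalins act. It measured 129 and 138 CPM in wild type, against 147 and 162 CPM in knockout (log2 fold change 0.21, SE 0.08; edgeR's adjusted p = 0.998). Both knockout libraries were above wild type. Of the 5 tested genes this held for 1, and both knockout libraries were below in 2. Over all tested genes these shares were 14.8% and 15.4%. Oprd1 was the most abundant of these receptors per length, at 35.9 ± 3.53 CPM per kb, whereas the mu receptor gene Oprm1 stood at 0.263 ± 0.0679 and the kappa receptor gene Oprk1, at which dynorphins act, at 0.119 ± 0.0121. Among the precursors, Pnoc (nociceptin) measured 9.08 and 9.42 CPM in wild type, against 7.77 and 8.16 CPM in knockout, both lower. Pomc had between 0 and 7 counts in each library.

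Adora2a (chromosome 10, 75316877 to 75334784, plus strand) encodes the adenosine receptor that raises cyclic AMP in indirect-pathway neurons. It had 13 and 10 counts in wild type, against 21 and 25 in knockout, which is 1.34 and 0.971 CPM against 2.07 and 2.43 CPM. The knockout libraries were both higher, on few counts. Adora2a reached the level of the filter (0.978 CPM) in both knockout libraries and in 1 wild type library, so it was tested because of the group in which it was higher. Its fold difference was 1.94 with a 95% interval from 1.06 to 3.56 (log2 fold change 0.96, SE 0.42), with an unadjusted p of 0.0323 and an adjusted p of 0.998 by edgeR.

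The enzymes of cyclic AMP had the most counts of the set. Adcy5 (chromosome 16, 35154877 to 35305738, plus strand) is the main adenylyl cyclase of the striatum. It measured 140 and 138 CPM in wild type, against 133 and 139 CPM in knockout, and the genotypes overlapped. The log2 fold change was −0.04 with a 95% interval of −0.20 to 0.12, which is 0.872-fold to 1.09-fold. Pde10a (chromosome 17, 8525372 to 8986648, plus strand), the phosphodiesterase that is concentrated in striatal projection neurons, measured 129.6 and 122 CPM in wild type, against 111 and 127 CPM in knockout. Its lowest library was knockout replicate 1, and the other knockout library lay inside the wild type range. The log2 fold change was −0.08 with a 95% interval of −0.25 to 0.09, or 0.843-fold to 1.07-fold, and it turned to 0.00 (above 0 in sign) without knockout replicate 1. Both intervals lay between 0.843-fold and 1.09-fold, and the adjusted p was 0.998 for both genes by edgeR.

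Other adenylyl cyclases and phosphodiesterases were read alongside. Of 8 further adenylyl cyclase genes 7 were tested and 0 passed, 4 above and 3 below 0, around a median of 0.02 (log2), and 0 at an unadjusted p under 0.05 by edgeR, DESeq2 or limma voom. Adcy1, a calcium-stimulated cyclase of the cortex, was the most abundant per length at 96.5 ± 4.59 CPM per kb, above Adcy9 at 27.4 ± 1.20 and Adcy5 at 19.1. Adcy3, with the smallest p of that list, measured 84.3 and 87.3 CPM in wild type, against 75.5 and 78.7 CPM in knockout (log2 fold change −0.15, SE 0.09; unadjusted p = 0.0858 by edgeR). Of 16 further phosphodiesterase genes 15 were tested and 0 passed by any of the 3 tools, with 6 above and 9 below 0 and a median of −0.04. Pde3a was the one with an unadjusted p under 0.05 by edgeR, where DESeq2 and limma voom gave 0. It had 13 and 19 counts in wild type, against 19 and 42 in knockout, and knockout replicate 3 alone stood clear of the rest.

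Rgs9 (chromosome 11, 109225355 to 109298129, minus strand) encodes a GTPase-activating protein that ends signals of dopamine and opioid receptors. It measured 28.3 and 26.9 CPM in wild type, against 28.9 and 29.9 CPM in knockout. Both knockout libraries were above wild type, and the gap between the nearest libraries of the 2 genotypes was smaller than the distance between the wild type libraries. The log2 fold change was 0.10 (SE 0.12; 95% interval −0.15 to 0.34; edgeR's adjusted p = 0.998). Rgs9 works with the G protein subunit Gnb5 and a membrane anchor, and among its family and partners 6 of 7 genes were tested and 0 passed or reached an unadjusted p under 0.05 by edgeR, DESeq2 or limma voom. They lay 3 above and 3 below 0, with a median of −0.05. Gnb5 measured 80.0 and 77.1 CPM in wild type, against 74.2 and 69.1 CPM in knockout, and the anchor Rgs7bp 689 and 696 against 713 and 736 CPM, neither past the threshold.

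Ppp1r1b (chromosome 11, 98348404 to 98357796, plus strand) had 111 and 125 counts in wild type, against 169 and 144 in knockout. In CPM these were 11.4 and 12.1 against 16.6 and 14.0. The knockout libraries were both higher, with knockout replicate 1 the highest of the 4. The difference was 1.298-fold with a 95% interval from 1.03 to 1.63 (log2 fold change 0.38, SE 0.16), with an unadjusted p of 0.0278 and an adjusted p of 0.998 by edgeR. Its size rested in part on single libraries, at a log2 fold change of 0.23 without knockout replicate 1 and 0.51 without knockout replicate 3. The antisense transcript 1700003D09Rik overlaps 7079 bases of this gene and had 0 to 2 counts per library. The strand setting of the counting is not given, so reads of the 2 genes cannot be told apart with certainty.

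A list of kinases, phosphatases and regulators around DARPP-32 held 20 genes. All 20 were tested and 0 passed by edgeR, DESeq2 or limma voom, with 10 above and 10 below 0 and a median log2 fold change of −0.00. One of them, Arpp21, a cyclic AMP-regulated phosphoprotein, had an unadjusted p under 0.05 by edgeR and limma voom and not by DESeq2. It measured 172 and 170 CPM in wild type, against 189 and 198 CPM in knockout (log2 fold change 0.18, SE 0.07; edgeR's adjusted p = 0.998). Ppp1r1a, the inhibitor of protein phosphatase 1 most similar in role to DARPP-32, measured 22.0 and 23.7 CPM in wild type, against 24.3 and 21.8 CPM in knockout, and the genotypes overlapped. Per length it stood at 17.6 ± 0.958 CPM per kb, above Ppp1r1b at 4.63.

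Summed over the 7 genes, the level was 322 and 311 CPM in wild type, against 305 and 326 CPM in knockout. The genotypes overlapped, at 316 ± 7.81 against 316 ± 14.5 CPM (SD, n = 2 libraries each; exact permutation test over libraries, two-sided p = 1, where no p below 0.3333 is possible). This sum is set by Adcy5, Pde10a and Rgs9, which held 91.3% of it. The sum turned from −0.710 CPM (knockout minus wild type) to 4.81 without wild type replicate 2 and to 9.55 without knockout replicate 1. The remaining genes, Ppp1r1b, Penk, Adora2a and Pdyn, summed to 23.5 and 23.7 CPM in wild type, against 32.4 and 30.1 CPM in knockout. That grouping was made after the values were seen and was not tested. The median log2 fold change was 0.24 over the 6 tested genes, against −0.00 over all tested genes, and 0.09 over all 7 with no filter on low counts. It was also 0.09 with at least 5 CPM in 3 libraries, where Adora2a was not tested.

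The 6 profiles over the libraries were not alike. Taken relative to the wild type mean (log2 of TMM-scaled CPM), their mean profile was 0.04 (wild type replicate 2), −0.04 (wild type replicate 3), 0.27 (knockout replicate 1) and 0.30 (knockout replicate 3). Distances of the single genes from it (Euclidean, over 4 libraries) ran from 0.145 for Penk to 1.02 for Adora2a. Adora2a, tested because of the group in which it was higher, stood at 0.87 and 1.08 in knockout. It raised the mean profile there. Of 8419 other tested genes with at least 10 CPM, the 5 nearest to the mean profile were Lzts2, Secisbp2, Mis12, Acvr2a and Slc35a5. Their distances ran from 0.0518 to 0.0708, which are small because the 5 were picked as the nearest of 8419. Lzts2, the nearest, measured 21.8 and 21.3 CPM in wild type, against 25.3 and 26.6 CPM in knockout. None of the 5 passed by edgeR (adjusted p = 0.998 for each). By the same test 4 had an unadjusted p under 0.05, but picking genes by this profile favours that, so it supports nothing. Over 4 libraries such likeness is a description.

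A list held 25 further genes of striatal projection neurons. Of these 18 were tested and 0 passed by edgeR, DESeq2 or limma voom, with 9 above and 9 below 0 and a median log2 fold change of −0.01. An unadjusted p under 0.05 was reached by 1 gene with edgeR, Drd2, and by 0 with DESeq2 or limma voom. Both knockout libraries lay above wild type in 7 of the 18 and below in 3, beside 14.8% and 15.4% of all tested genes. Those above included Gng7, a G protein subunit of this pathway, with 65.8 and 61.4 CPM in wild type, against 71.5 and 71.7 CPM in knockout. Those below included the retinoic acid receptor gene Rarb, with 22.2 and 22.3 against 17.3 and 19.8 CPM. Actn2, the actinin of dendritic spines, measured 16.7 and 14.9 against 19.2 and 17.7 CPM. The summed level of the list was 1047 and 1026 CPM in wild type, against 1049 and 1029 CPM in knockout, so the genotypes overlapped. Abundant genes weigh most in this sum: Gnal had a mean of 354 CPM over the libraries, and Drd2 one of 1.48 CPM.

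**Figure D3:**
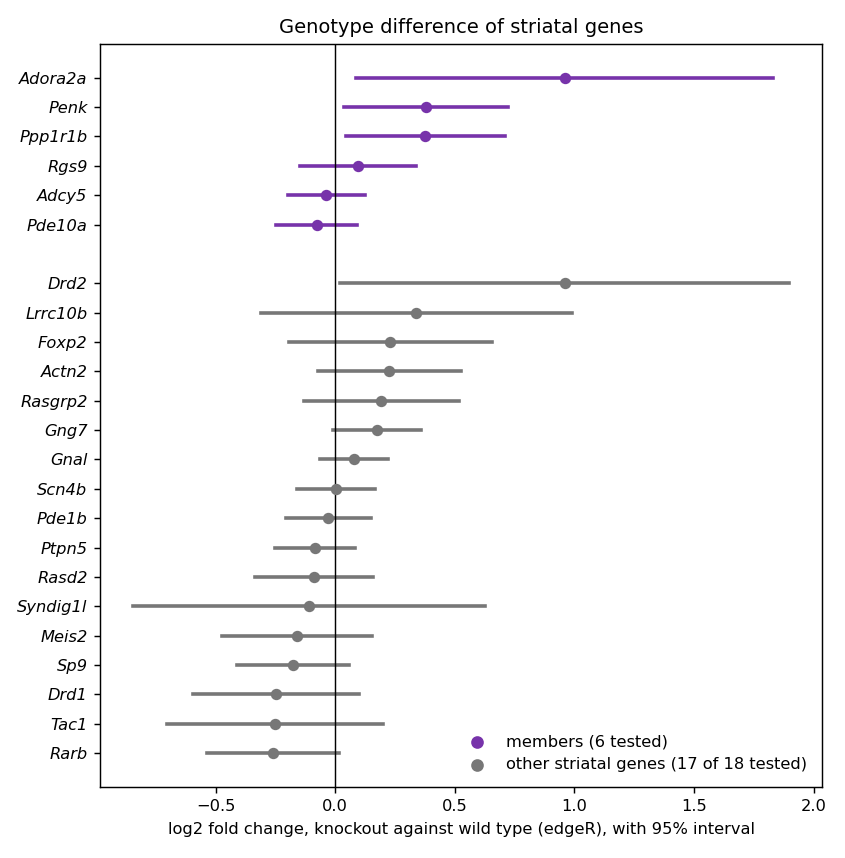
Points are log2 fold changes of knockout against wild type from edgeR and lines their 95% intervals, in purple for the 6 tested members and in grey for 17 of the 18 other striatal genes tested. The members run from −0.08 for Pde10a to 0.96 for Adora2a, the other genes lie on both sides of 0, and none passed after adjustment.

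Indirect-pathway and direct-pathway genes were set side by side after their values had been seen, with no test of the contrast. Drd2 had 9 and 11 counts in wild type, against 16 and 24 in knockout, or 0.928 and 1.07 CPM against 1.57 and 2.33 CPM (log2 fold change 0.96, SE 0.46; unadjusted p = 0.0456 and adjusted p = 0.998 by edgeR). Like Adora2a, Drd2 reached the level of the filter in both knockout libraries and in 1 wild type library. Penk, Adora2a and Drd2 shared their order, with both knockout libraries above both wild type libraries, as in 14.8% of all tested genes. Gpr6, a receptor also known from indirect-pathway neurons, went the other way on 6 and 5 counts in wild type, against 2 and 2 in knockout, and was not tested. Sp9, from the list of further striatal genes, also went the other way. It measured 36.8 and 33.0 CPM in wild type, against 32.1 and 29.6 CPM in knockout (log2 fold change −0.18, SE 0.11). The shared order thus describes genes picked by their values. Of the direct-pathway genes, Drd1 measured 23.8 and 28.8 CPM in wild type, against 17.9 and 26.5 CPM in knockout (log2 fold change −0.25, SE 0.16; edgeR's adjusted p = 0.998). Tac1, which some parvalbumin neurons also express, measured 43.6 and 55.5 CPM in wild type, against 34.4 and 49.0 CPM in knockout (log2 fold change −0.25, SE 0.19; edgeR's adjusted p = 0.998). Drd1 and Tac1 were both lowest in knockout replicate 1 and highest in wild type replicate 3, and the genotypes overlapped. Without knockout replicate 3, the log2 fold change of Tac1 was −0.51. That fit leaves knockout replicate 1 alone, the library in which Tac1 was lowest, so it cannot show how knockout libraries vary.

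Levels of these genes were also compared per length. Drd1, at 6.69 ± 1.30 CPM per kb, stood above Drd2, at 0.579 ± 0.249, in each of the 4 libraries. Penk, at 7.12 ± 1.08, stood likewise above Adora2a at 0.556 and Drd2, and Drd1 above Pdyn at 0.188 CPM per kb.

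**Figure D4:**
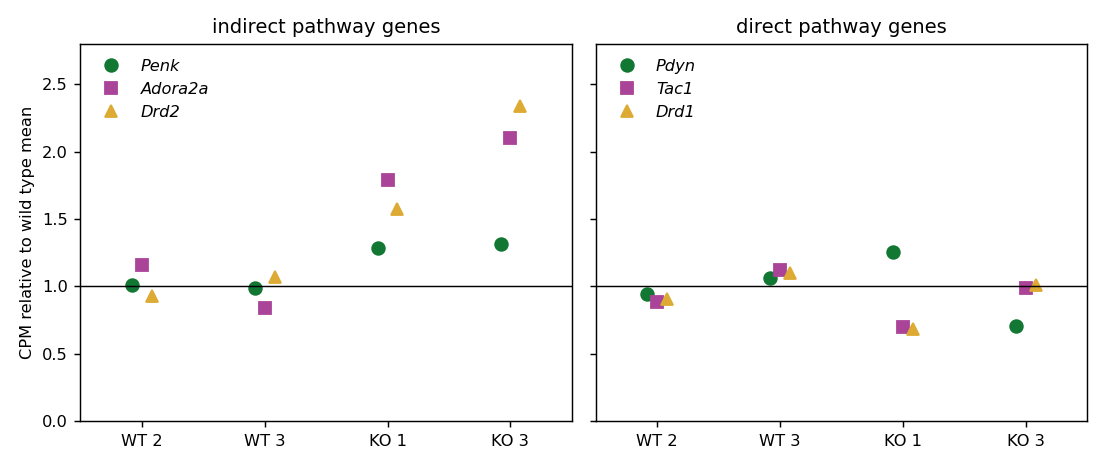
The vertical axis is CPM divided by the gene's wild type mean, from 0, for each of the 4 libraries; the line marks the wild type mean. Penk, Adora2a and Drd2 are above 1 in both knockout libraries, whereas Tac1 and Drd1 are lowest in knockout replicate 1 and Pdyn, on 4 to 7 counts per library, scatters to both sides. Gpr6 and Sp9, lower in both knockout libraries, are not plotted.

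Markers of other cells were read in the same libraries. The striatum's cholinergic interneuron markers (among them Chat and Slc5a7) were near 0: all 5 were below the filter, none had more than 7 counts in a library, 3 were at 0 in at least 1 library, and their sum was 0.485 to 1.34 CPM in wild type and 0.295 to 1.07 CPM in knockout. Lists for claustrum and insular neurons and for thalamic neurons had 0 genes past the threshold by edgeR, DESeq2 or limma voom, out of 5 and 6 tested. The claustrum and insular list, which shares Oprk1 with the opioid list, summed to 18.6 to 20.3 CPM in wild type and 21.4 to 21.9 CPM in knockout, with 4 of 5 genes above 0 and 0 at an unadjusted p under 0.05. Its sums were higher in both knockout libraries, on at most 65 counts of any gene in a library. Both knockout libraries lay above wild type in 2 of the 5 genes and below in 0, beside 14.8% and 15.4% of all tested genes. Thalamic markers lay 2 above and 4 below 0, with sums of 91.7 to 97.9 CPM in wild type and 96.5 to 98.9 CPM in knockout, nearly all from Rora; Prkcd was the one with an unadjusted p under 0.05, by edgeR and limma voom and not by DESeq2.

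Cortical excitatory neuron markers, which share Foxp2 with the striatal list, were above 0 in 8 of 11 genes and 0 passed by any of the 3 tools. Unadjusted, 2 had a p under 0.05 by edgeR and limma voom and 0 by DESeq2. Neurod6, a transcription factor of excitatory neurons, was among them, with 9.49 and 7.47 CPM in wild type, against 5.51 and 6.42 CPM in knockout. It was the 1 gene of the 11 in which both knockout libraries were lower, while both were higher in 5. Over all tested genes these shares were 15.4% and 14.8%. Summed levels of this list overlapped, at 1082 to 1175 CPM in wild type and 1135 to 1177 CPM in knockout. Parvalbumin neuron markers were below 0 in 7 of 10 genes, with sums of 11555 to 11692 CPM in wild type and 11215 to 11256 CPM in knockout and 0 at an unadjusted p under 0.05 by any tool. That list shares Tac1 with the striatal list and holds Gad1, so its sum is not of parvalbumin neurons alone.

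Oligodendrocyte markers summed to 274 to 304 CPM in wild type, 280 CPM in knockout replicate 1 and 393 CPM in knockout replicate 3, with 6 of 7 genes above 0. Astrocyte markers (5 of 6 above 0) reached 596 CPM in knockout replicate 3, against 503 to 540 CPM in the other libraries. Endothelial markers (3 of 4 tested genes above 0) reached 20.9 CPM in knockout replicate 3 against 11.6 to 15.3 CPM, and microglial markers (1 of 4 tested genes above 0) summed to 12.9 to 13.6 CPM in wild type and 12.6 CPM in both knockout libraries. Other interneuron markers, 4 above and 4 below 0, summed to 295 and 323 CPM in wild type, against 259 and 315 CPM in knockout. Of these 5 lists 0 genes passed by any tool, and 1, the oligodendrocyte gene Mal, had an unadjusted p under 0.05 by edgeR and limma voom. The astrocyte, oligodendrocyte and endothelial sums exceeded the wild type range in knockout replicate 3 only, and the claustrum and insular sum in both knockout libraries. Of the 7 genes, Penk, Adora2a, Ppp1r1b and Rgs9 exceeded it in both, Pdyn in knockout replicate 1 only, and Adcy5 and Pde10a in neither. Without knockout replicate 3, the log2 fold changes were 0.38 for Penk, 0.85 for Adora2a, 0.51 for Ppp1r1b and 0.08 for Rgs9. For Pde10a and Adcy5 they were −0.16 and −0.06. Without knockout replicate 1, the values in the same order were 0.39, 1.06, 0.23, 0.11, 0.0026 and −0.02. Each of these fits leaves 1 knockout library. The part of any of these cell types, or of how far the dissection reached, in the values of the striatal genes was not tested.

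**Figure D5:**
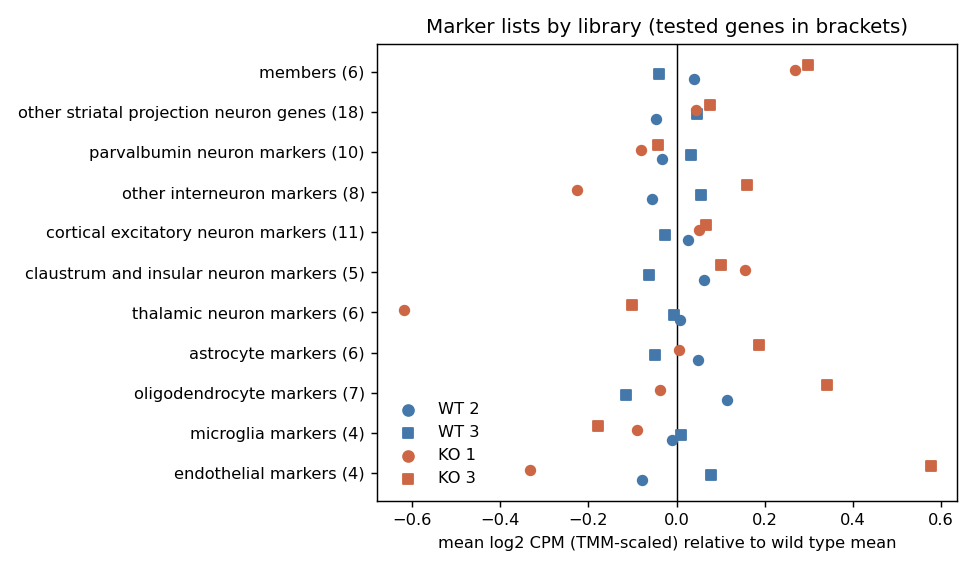
The horizontal axis is the mean log2 CPM (TMM-scaled) of a list's tested genes relative to the wild type mean, with a point per library (blue wild type, orange knockout; circles and squares tell replicates apart). The 6 tested members lie at 0.27 and 0.30 in knockout, the 18 other striatal genes at 0.05 and 0.08, and astrocyte, oligodendrocyte and endothelial markers are highest in knockout replicate 3. The mean of the members includes Adora2a at 0.87 and 1.08, on few counts and tested because of the group in which it was higher.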

How the data were processed

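Ribosome-bound RNA was made into libraries with a stranded total RNA kit and aligned with STAR to mm10, per the labels' protocols and the submitters' processing notes; for the counting tool, the annotation and the use of strand, nothing is given in the sources used here. The values the authors deposited are raw counts for each gene symbol. Columns were assigned to samples by title; 2 columns with the same title were left out, which gave 2 libraries per genotype. No 2 libraries agreed within sampling noise (chi-square per degree of freedom 2.90 to 6.00).

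CPM values use library totals. Differences were tested over all genes in R 4.3.3 with edgeR 4.0.16 (TMM, filterByExpr, robust quasi-likelihood, Benjamini-Hochberg, threshold 0.05), checked on simulated data; standard errors are the log2 fold change over the root of the F statistic. The median standard error was 0.13. DESeq2 1.42.0 and limma 3.58.1 (voom) were alternatives, beside other scalings and filters and leaving out each library. Coordinates and exon lengths are from GENCODE M21 by symbol, promoters from RefSeq. Drd1 was matched through its older symbol, Drd1a.

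The 17 lists, the 7 genes among them, and the tests were chosen with earlier results of these data known. Named genes were the 7, up to 4 of each list with the smallest unadjusted p, genes named for their roles (Drd1, Drd2, Tac1, Oprm1, Oprd1, Oprk1, Ppp1r1a), Fxr1 and Pvalb, and the 5 nearest in profile; some genes under this rule are not reported here. Gad1, Slc17a7, Adcy1, Adcy9, Gnal, Gpr6, Sp9, Rgs7bp, Pomc, Rn45s and 1700003D09Rik were added after values were seen, some as background levels.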

Additional observations from a re-analysis of the deposited data

How the results depend on the processing

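No gene of the 7 passed the threshold under any of the 12 alternatives to the edgeR fit. The 4 genes above 0 stayed above 0 wherever they were tested, with log2 fold changes of 0.23 to 0.51 for Ppp1r1b, 0.38 to 0.39 for Penk, 0.75 to 1.196 for Adora2a and 0.07 to 0.12 for Rgs9. Adjusted p values over these alternatives lay between 0.480 and 0.99999, the lowest for Ppp1r1b without knockout replicate 3. Adora2a was not tested with at least 5 CPM in 3 libraries. Pde10a, at −0.08, lay between −0.161 and 0.0026 when single libraries were left out, turning above 0 without knockout replicate 1. The median log2 fold change, 0.24, was 0.0948 with no filter on low counts and 0.0938 with at least 5 CPM in 3 libraries, where other genes of the 7 were tested; leaving out single libraries gave 0.170 to 0.229. The summed level (knockout minus wild type, −0.710 CPM) was −10.97 to 9.55 CPM without single libraries and 2.90 CPM without Adcy5. Of the other striatal genes 0 to 1 passed without single libraries. Over all genes 4 passed, 1 with library totals, 2 by DESeq2, 13 with no filter, and 9 to 48 without single libraries, where a lone library is assumed to vary like the other genotype; the cause was not tested. Pdyn and Adora2a, with 4 to 25 counts per library, carry large errors. No paired analysis was possible because accession order alone gives the replicate numbers.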
